A study of Mus musculus with 3 samples.

Results

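Group 2 innate lymphoid cells (ILC2) of the lung in which no UMI of Il5 or Il13 was counted are the subject here. They are 908 of the 1622 cells kept from the IL-18R- ST2+ library, out of 5164 kept cells in 3 libraries. Cells needed 500 or more genes, and no more than 10% of their UMIs from mitochondrial genes. A cell counted as an Il5/Il13-zero ILC2 when Il1rl1 and Gata3 together had at least 2 UMIs, Cd3e and Cd3d had none, Il5 and Il13 had none, and Csf1 and Dach2 together had fewer than 2. The cells were thus chosen by the measured UMIs of these genes, so those values are described and not tested, and every comparison within the IL-18R- ST2+ library follows from the same cut.

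The cells came from lungs of GFI1B-GFP reporter mice, a line in which green fluorescent protein reports use of the gene for the zinc finger repressor GFI1B. Perfused and digested lungs gave lymphocytes sorted as live, CD45+, negative for lineage markers, CD90.2+ and IL-7R+, and this gate applies to all 3 libraries. The groups are the IL-18R- ST2+ sort, an IL-18R+ pool of CD103+ GFP- and CD103- GFP+ cells whose barcodes are not mapped to either sort, and a library labelled as IL-18R- CD103- GFP-. Strain, age, number of animals, any treatment and the GFP status of the ST2+ sort were not given in the sources used here. There is 1 library per group, so no difference has a replicate check, no test was run, and every interval is a 95% interval of counting error only. Library and cell class cannot be told apart in a comparison between libraries.

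ILC2 are tissue lymphocytes that carry no antigen receptor and respond to alarm cytokines from damaged epithelium. IL-33 binds ST2, the product of Il1rl1, and GATA3 is the transcription factor that sets and keeps the ILC2 state. IL-5 draws and sustains eosinophils, IL-13 drives mucus production and airway reactivity, and amphiregulin (Areg) serves epithelial repair. Resident lung ILC2 are known to hold mRNA for some of these products at rest and to add more on stimulation.

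Both genes whose transcript was absent lie on chromosome 11 in GRCm38, the build also known as mm10. Il13 spans 53631324 to 53634702 on the minus strand and Il5 53720794 to 53725106 on the plus strand. Il4, at 53602982 to 53618669, is in the same type 2 cytokine locus, and Csf2 lies at 54247271 to 54249667, both on the minus strand. The 250 bases before the RefSeq start (GRCm38.p6) of the pair that defined the cells are shown because GATA3 transcript was part of the same gate. Capitals mark a match, on either strand, to the letters GATA with A or T before them and A or G after them, the motif that GATA factors are known to bind.
Il5, chr11:53720544-53720793, plus strand: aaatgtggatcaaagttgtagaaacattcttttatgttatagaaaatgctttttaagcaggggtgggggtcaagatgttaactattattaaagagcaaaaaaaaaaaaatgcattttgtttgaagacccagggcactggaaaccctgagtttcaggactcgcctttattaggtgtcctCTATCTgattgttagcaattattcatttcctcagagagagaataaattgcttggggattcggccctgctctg
Il13, chr11:53634703-53634952, minus strand: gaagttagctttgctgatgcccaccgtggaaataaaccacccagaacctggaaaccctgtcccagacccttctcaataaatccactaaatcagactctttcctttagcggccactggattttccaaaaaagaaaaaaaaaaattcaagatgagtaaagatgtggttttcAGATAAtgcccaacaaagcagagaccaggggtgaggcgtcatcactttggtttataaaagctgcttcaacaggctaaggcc
Each window held 1 match, 72 bases before the start in Il5 and 81 bases before it in Il13. The Csf2 window held 1 match, 247 bases before a RefSeq start that is 232 bases from the GENCODE start, and the Il4 window held 0. Such a match was present in 27.1% of 27025 promoter windows of this length, and a kappa B match in 3.75% of them and in none of the windows of these 4 genes. A match describes letters only.

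The size of the Il5/Il13-zero class varied with how deeply each cell was sequenced. Of 1493 cells that passed the Il1rl1, Gata3 and CD3 criteria (the ILC2 gate), 908 were Il5/Il13-zero (60.8%, 58.3 to 63.3), 433 had an Il5 or Il13 UMI with Csf1 and Dach2 below 2 (Il5/Il13-positive ILC2), and 152 had at least 2 UMIs of Csf1 and Dach2 (Csf1/Dach2 ILC2). Of those 152, 105 also had no Il5 or Il13 UMI, so 1013 of the 1493 gate cells had no UMI of either gene. The Il5/Il13-zero share was 80.7% (70.6 to 88.6) in cells under 3000 UMIs. It was 65.5% (61.0 to 69.8) between 4000 and 5000 UMIs and 24% (14.9 to 35.3) in the 75 cells of 8000 UMIs or more. From the shallowest to the deepest bin the Csf1/Dach2 share went from 9.64% to 28%. The fall is thus not only a rise in cells with an Il5 or Il13 UMI. When each cell was thinned to 2000 UMIs the share was 75.0% of the cells that still passed the gate, and thinned to 3000 UMIs it was 68.4%. Median UMIs per cell were 4396 (985 to 10939) in Il5/Il13-zero ILC2, 5120 in Il5/Il13-positive ILC2 and 5086 in Csf1/Dach2 ILC2. A count of 0 in these cells is therefore an absence of captured transcript at that depth, and its part set by depth was not separated from lack of expression.

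**Figure D1:**
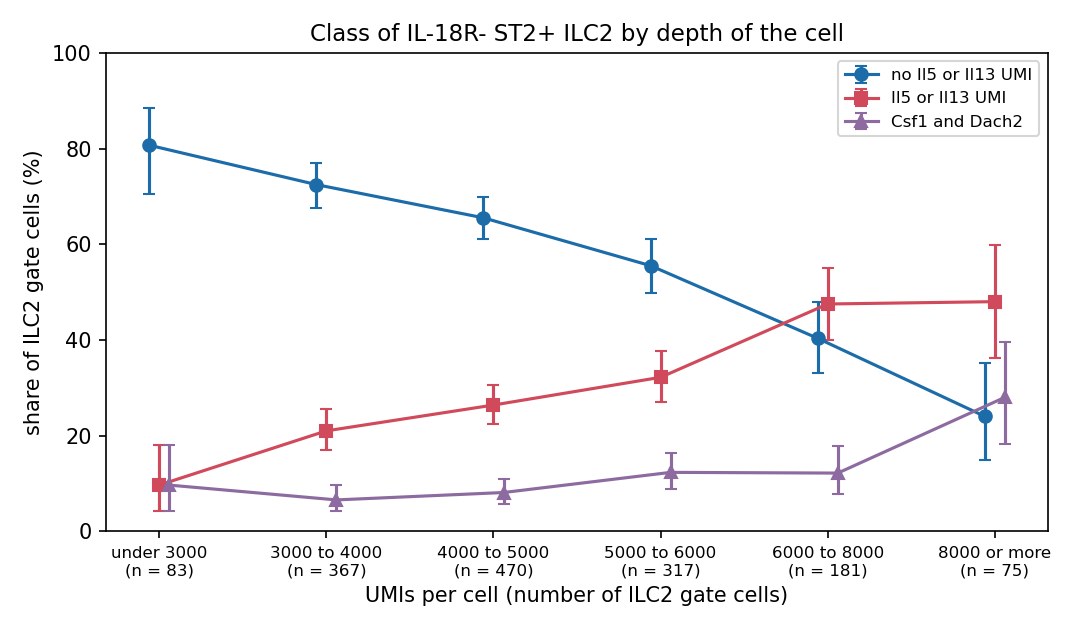
Share of ILC2 gate cells of the IL-18R- ST2+ library in each class (y axis, percent) by UMIs per cell (x axis, with the number of gate cells), with 95% Clopper-Pearson bars for counting error. The Il5/Il13-zero share is 80.7% below 3000 UMIs and 24% at 8000 UMIs or more. The Il5/Il13-positive share goes from 9.64% to 48% and the Csf1/Dach2 share from 9.64% to 28%.

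The cut at 0 UMIs separated cells that lie close together. Of the 433 Il5/Il13-positive ILC2, 160 had exactly 1 Il5 or Il13 UMI, 142 had 2 to 4 and 131 had 5 or more. Il5 had a UMI in 287 of them, Il13 in 238 and both in 92. Just inside the lower gate were 58 cells with exactly 2 UMIs of Il1rl1 and Gata3, and just outside were 26 with 1 that met every other criterion. For Csf1 and Dach2, 256 of the 908 cells held 1 UMI, and 79 cells without Il5 or Il13 transcript were left out for holding exactly 2. Il1rl1 had a UMI in 872 of the 908 cells, Gata3 in 843 and both in 807.

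The markers of the label were present at transcript level. Il1rl1 and Gata3 are genes of the rule, and the other markers were chosen with earlier results of these data known. Their levels are thus a description and not support for the name ILC2, which is used here as given. Levels are given as UPM, the UMIs-per-million value of a gene after the summed UMIs of a class are scaled to the same total. The gate genes stood at 900 UPM (Il1rl1) and 866 UPM (Gata3) in Il5/Il13-zero ILC2. Rnf128, which encodes the ubiquitin ligase GRAIL, was at 250.3 UPM (235 to 266) in Il5/Il13-zero ILC2, 1.89 in the pool and 4.74 in the sort labelled as IL-18R- CD103- GFP-, with a UMI in 55.1% of the 908 cells. Slc7a8, an amino acid transporter gene, was at 279 UPM against 1.44 and 0.721, with a UMI in 64.9% of cells. Ccdc184 was at 227 UPM against 2.56 and 9.99, in 52.6% of cells. Il9r, the IL-9 receptor gene, was at 81.6 UPM against 6.78 and 1.13, in 29.9% of cells. For all 4 the level in Il5/Il13-zero ILC2 was at least 12.03-fold that of either other library. Single cells held few copies: the median Il5/Il13-zero ILC2 had 1 UMI of Rnf128, 1 of Ccdc184, 1 of Slc7a8 and 0 of Il9r.

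Among transcripts of the sort antigens outside the gate, Il18r1 followed the label of the ST2+ library, which does not name CD103. Il18r1, part of the IL-18 receptor, was at 11.7 UPM in Il5/Il13-zero ILC2 against 663 in the pool and 591 in the sort labelled as IL-18R- CD103- GFP-, where 86.3% of cells had a UMI. At transcript level that library therefore goes against its label for IL-18R. The label is of a sort by surface protein, which was not measured here and need not follow transcript, and the library is named by it throughout. Itgae, the CD103 gene, was at 1.22 UPM against 99.5 and 3.40. Il7r and Thy1, the genes of antigens positive in the shared sort gate, were present but lower than in the other libraries. Il7r was at 1108 UPM against 1828 and 1643, and Thy1, the CD90 gene, at 188 against 377 and 457.6. No cell barcode was shared between Il5/Il13-zero ILC2 and either other library, and 1 barcode was shared between those libraries.

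Marker lists of other lymphocytes summed to less than in the other libraries, with several defining genes at 0. Of the 11 T cell genes outside the rule, Cd4, Cd8a and Cd5 had 0 UMIs, and the list summed to 1211 UPM against 3334 in the pool and 3342 in the sort labelled as IL-18R- CD103- GFP-. Most of that sum was Trbc1 (463 UPM) and Trbc2 (489.8 UPM), the T cell receptor beta constant genes, with Lat at 129.8 and Cd3g at 108 UPM. Transcripts of unrearranged receptor loci are known in ILC, and 3' counts do not tell a rearranged from an unrearranged chain. Gamma delta T cell genes summed to 583 UPM against 3854 and 4793, with Cd163l1 and Blk at 0 and Trdc, the delta constant gene, at 2.44 UPM. A UMI was present for 8 of the 10 genes of that list, and genes other than those named held most of its sum. ILC3 genes summed to 905 UPM against 1689 and 1457, of which the lymphotoxin gene Ltb made up 883 UPM. Myeloid and eosinophil genes summed to 4.14 UPM with 8 of 12 genes at 0, and mast cell and basophil genes to 9.49 UPM with 6 of 9 at 0. Cycling genes summed to 107 UPM against 464 and 216, with Mki67 at 0.974 UPM.

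Against the IL-18R+ pool, Il5/Il13-zero ILC2 had higher levels of most ILC2 identity genes, of 9 of 18 measured secreted mediators, and of Nr4a1 and Egr3, and lower levels of type 17, T cell, egress and early lymphoid genes. A gene was measured when either side reached 20 UPM, and counted as higher or lower at a ratio of at least 2 with both sums raised to a floor of 3 UMIs. Of 5944 genes measured, 262 were higher in Il5/Il13-zero ILC2 (4.41%) and 813 lower (13.7%), the former including Il1rl1 and Gata3. Trimmed mean (TMM) scaling gave 387 higher and 545 lower, so the share of higher genes among those called went from 24.4% to 41.5%, and the median log2 ratio over the genes measured went from -0.30 to -0.02. Against the sort labelled as IL-18R- CD103- GFP-, 301 of 5731 were higher (5.25%) and 635 lower (11.1%), or 359 and 491 under TMM (32.2% and 42.2% higher among those called). The median log2 ratio was -0.19, and -0.06 under TMM.

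ILC2 identity genes, a list that holds the label's markers Rnf128, Ccdc184, Slc7a8 and Il9r, were mostly higher. The list was chosen with earlier results of these data known, so its counts are a description and not support for the name. Of 18 outside the rule, all measured, 12 were higher and 1 lower than in the pool (median log2 ratio 2.73, against -0.30 for all measured genes), and 11 higher and 0 lower than in the sort labelled as IL-18R- CD103- GFP- (median 3.42, against -0.19). Klrg1, an inhibitory receptor of mature ILC2, was at 164 UPM in Il5/Il13-zero ILC2 against 3.44 and 3.61. Arg1, which breaks down arginine, was at 225 UPM against 32.7 and 21.6, and Hs3st1, a heparan sulfate sulfotransferase gene, at 338 against 13.1 and 4.64. Il17rb, the IL-25 receptor gene, was at 110.3 against 31.9 and 8.24. The gene lower than in the pool was Icos, a costimulatory receptor, at 401 against 802 UPM, a ratio that did not reach 2 under TMM. Bcl11b at 256 UPM and Ets1 at 497 UPM, general lymphoid factors, were within a ratio of 2 of both libraries.

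**Figure D2:**
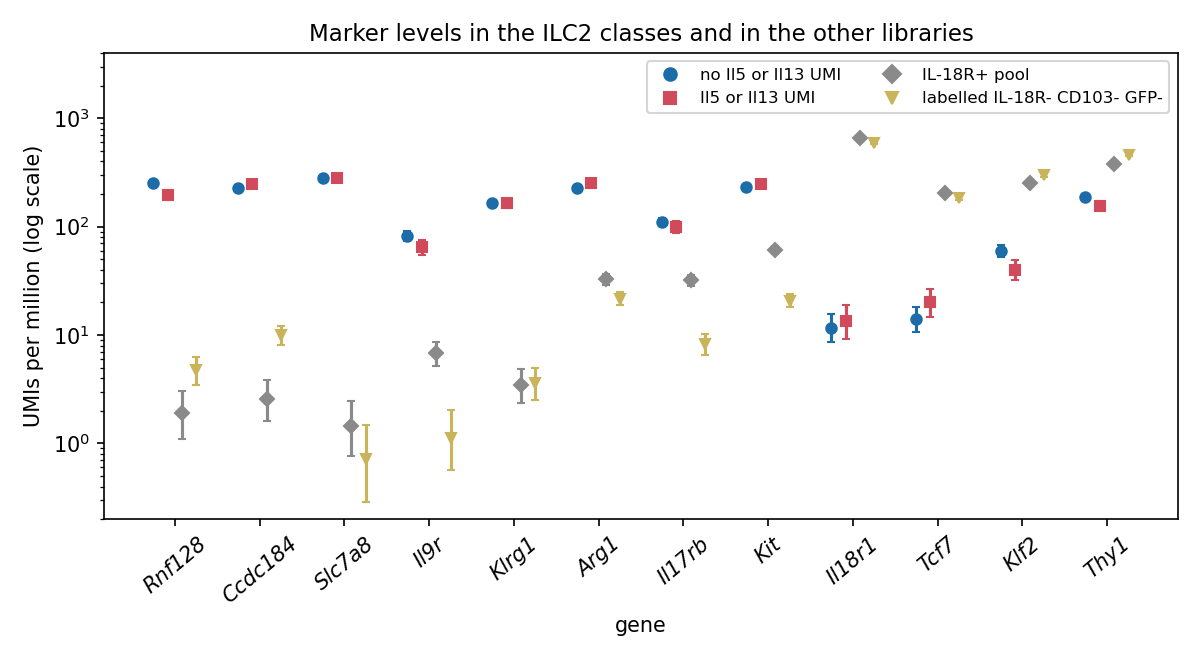
Levels of 12 marker genes in UPM (log y axis) in Il5/Il13-zero ILC2 (circles), Il5/Il13-positive ILC2 (squares), all kept cells of the IL-18R+ pool (diamonds) and of the sort labelled as IL-18R- CD103- GFP- (triangles), with 95% Poisson bars for counting error. Both ILC2 classes lie together for Slc7a8 and Klrg1, and Il18r1 is at 11.7 in Il5/Il13-zero ILC2 against 663 and 591 in the other libraries.

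Cells without Il5 and Il13 transcript held transcripts of other secreted products. Of 27 secreted cytokine and mediator genes outside the rule, 18 were measured against the pool, 9 were higher, 6 lower and 3 neither (median log2 ratio 1.38). Against the sort labelled as IL-18R- CD103- GFP- 20 were measured, the same 9 were higher, 8 lower and 3 neither (median 0.74). Over all genes measured, 4.41% were higher and 13.7% lower than in the pool (median -0.30). Against the other sort the shares were 5.25% and 11.1% (median -0.19). The 9 were Il4, Il2, Lif, Csf2, Areg, Ccl1, Cxcl2, Calca and Bmp7. The 6 lower than in the pool were Il17a, Il17f, Il22, Hbegf, Ccl5 and Xcl1. Il17a, a type 17 cytokine gene, had 1 UMI in all 908 cells against 498 UPM in the pool.

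Ccl1, a chemokine gene whose receptor is CCR8, was at 776 UPM (749 to 803) in Il5/Il13-zero ILC2. It had 1 UMI in the whole pool and 2.89 UPM in the sort labelled as IL-18R- CD103- GFP-, where 3 cells held all of it. Ccr8 itself was at 70.9 UPM against 5.22 and 1.96. Csf2, which encodes GM-CSF, was at 527 UPM (505 to 550) against 13.4 and 21.7, a ratio of 39.2 (32.6 to 47.5) to the pool. Areg was at 1441 UPM (1405 to 1478) against 227 and 132, a ratio of 6.34 (6.03 to 6.67) to the pool. Calca, which encodes the neuropeptide CGRP, was at 497 UPM against 109 and 76.5, and the neutrophil chemokine gene Cxcl2 at 1079 against 166 and 87.2. Il2 was at 164 UPM against 17.7 and 6.70, and Lif at 116 against 15.2 and 10.3. Il4, the neighbour of Il13 in the cytokine locus, was at 33.1 UPM (27.8 to 39.2) against 1.67 and 0.618. Tgfb1 (225 UPM) and Tnfsf11 (277 UPM) were within a ratio of 2 of both libraries.

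In numbers of cells, after each cell was thinned to 2000 UMIs (899 of the 908 were deep enough), Areg had a UMI in 56.7% (53.4 to 60.0) of Il5/Il13-zero ILC2, against 11.7% of pool cells and 8.31% of the sort labelled as IL-18R- CD103- GFP-. Without thinning it was 66.4%, 18.0% and 12.2%. Ccl1 had a UMI in 33.9% (30.8 to 37.1) against 0.0610% and 0.107%, Csf2 in 31.9% (28.9 to 35.1) against 2.20% and 2.90%, and Calca in 35.8% against 8.96% and 9.39%, all thinned. Unthinned shares in Il5/Il13-zero ILC2 were 42.6% for Ccl1, 43.1% for Csf2 and 44.6% for Calca. At least 1 of Il4, Csf2, Areg and Ccl1 was present in 76.5% (73.6 to 79.3) of thinned Il5/Il13-zero ILC2 and 85.8% unthinned, against 13.7% and 11% of thinned cells of the other libraries. The median thinned cell held 3 of the 27 mediators, and 96.1% held at least 1, a share with a high background of 77.6% in the pool and 85.0% in the sort labelled as IL-18R- CD103- GFP-. Il9, Il10, Il3, Il22, Ccl3, Ccl4 and Penk had 0 UMIs, which allows a share of up to 0.330% of the 908 cells with a UMI by the limit of 3 counts, and 0.405% by the Clopper-Pearson interval.

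Free RNA in droplets can place a UMI in a cell that does not make it. The 43 kept cells of the same library with no Il1rl1 and no Gata3 UMI, with a median of 3669 UMIs against 4396 in Il5/Il13-zero ILC2, give a level for this. Without thinning, Ccl1 had a UMI in 16.3% (6.81 to 30.7) of them, Areg in 30.2% (17.2 to 46.1), Csf2 in 6.98% (1.46 to 19.1) and Rnf128 in 18.6% (8.39 to 33.4). Each of these 4 shares is below that in Il5/Il13-zero ILC2, and the intervals do not overlap. For Cxcl2 they do: it had a UMI in 25.6% (13.5 to 41.2) of the 43 cells and in 42.4% (39.2 to 45.7) of Il5/Il13-zero ILC2. Some of the 43 cells may be ILC2 whose gate transcripts were not captured. Il5 had a UMI in 2 of them and Il13 in 1.

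**Figure D3:**
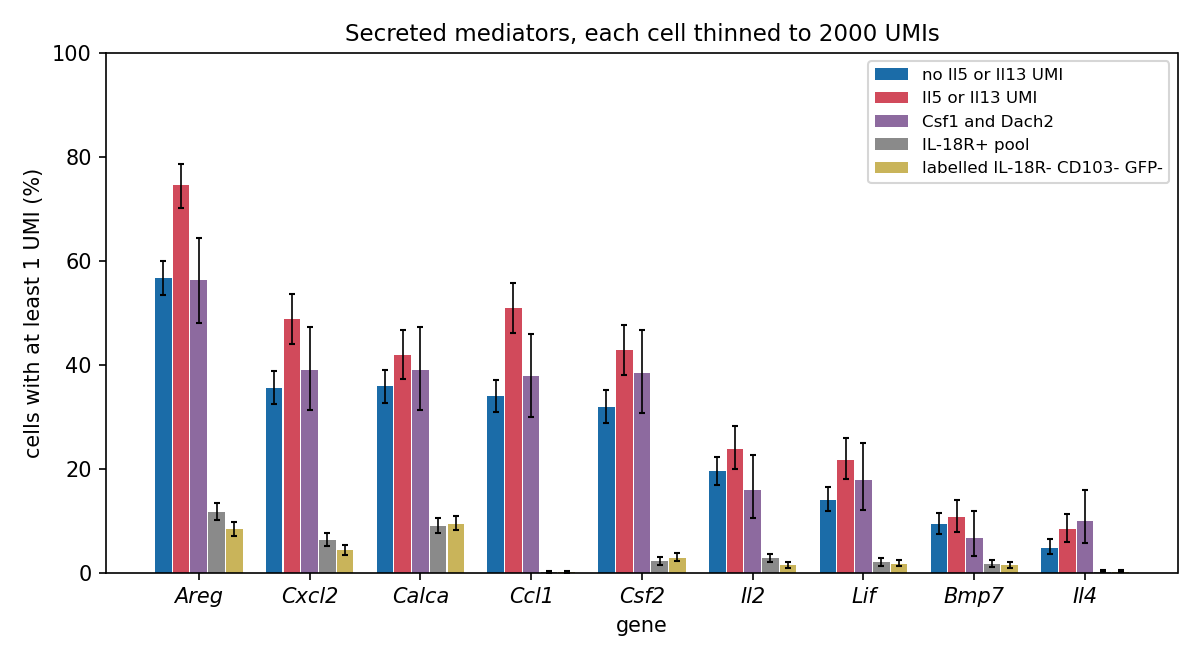
Share of cells with at least 1 UMI (y axis, percent) of 9 secreted mediator genes after thinning each cell to 2000 UMIs, with 95% Clopper-Pearson bars. In Il5/Il13-zero ILC2 (blue) Areg is at 56.7% and Ccl1 at 33.9%, between the Il5/Il13-positive ILC2 (red, 74.5% and 50.9%) and the other libraries (grey and yellow), and Csf1/Dach2 ILC2 are in purple.

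Genes of alarm signal receptors, neuropeptides and lipid mediators separated the Il5/Il13-zero ILC2 from the pool gene by gene and not as whole lists. Against the sort labelled as IL-18R- CD103- GFP- the neuropeptide and lipid list lay higher, with 8 of 11 genes above a ratio of 1. Over all genes measured, 4.41% were higher and 13.7% lower than in the pool (median log2 ratio -0.30). The same shares were 5.25% and 11.1% against the sort labelled as IL-18R- CD103- GFP- (median -0.19). Among alarm and cytokine receptor genes, 4 of 17 measured were higher and 5 lower than in the pool (median log2 ratio -0.02). Il10ra was at 155 UPM against 8.33 in the pool and 5.56 in the sort labelled as IL-18R- CD103- GFP-, while Il1r1, an IL-1 receptor gene, had 0 UMIs against 134 and 118 UPM. Il2ra, the high affinity IL-2 receptor chain, was at 315 against 153 and 165. Of 12 neuropeptide and lipid mediator genes measured, 5 were higher and 3 lower than in the pool (median 0.16), and of 11 against the sort labelled as IL-18R- CD103- GFP- 6 were higher and 1 lower (median 1.34). Vipr2, a receptor for vasoactive intestinal peptide, was at 91.5 UPM against 2.22 and 3.40, and Ptgir, the prostacyclin receptor gene, at 109 against 7.44 and 1.03. Cysltr1, a leukotriene receptor gene, was at 183 against 47.1 and 26.0. Ptgs2, the inducible cyclooxygenase gene, was lower, at 10.5 UPM against 97.5 and 89.6.

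Activation genes were present in cells without Il5 or Il13 transcript. Over all genes measured, 4.41% were higher and 13.7% lower than in the pool (median log2 ratio -0.30). The shares were 5.25% and 11.1% against the sort labelled as IL-18R- CD103- GFP- (median -0.19). Of 20 immediate early and heat shock genes measured, 5 were higher and 4 lower than in the pool (median log2 ratio 0.23), and 7 higher and 3 lower than in the sort labelled as IL-18R- CD103- GFP- (median 0.50). Nr4a1, an orphan nuclear receptor gene induced by stimulation, was at 2234 UPM against 559 and 499, and Egr3 at 323 against 14.8 and 10.7. The heat shock gene Hspa1a was lower, at 6.33 UPM against 56.4 and 41.1. Of 12 NF-kB and alarm signalling genes measured against the pool, 2 were higher and 2 lower (median 0.04). Nfkb1 was at 1255 UPM against 347 and 311, and Nfkbiz at 966 against 268 and 259.8. Immediate early genes also respond to tissue digestion, and the part of that in these levels was not tested.

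Genes of lineage control and tissue position gave the following. Over all genes measured against the pool, 4.41% were higher and 13.7% lower (median log2 ratio -0.30). In the NFAT, STAT and GATA list 3 of 19 measured were higher and 5 lower than in the pool (median log2 ratio -0.66). Pparg, a fatty acid sensing nuclear receptor gene, was at 57.7 UPM against 4.11 and 1.65, and Gfi1, the relative of the reporter gene Gfi1b, at 28.5 against 9.33 and 11.6. In the quiescence and early ILC list 2 of 20 were higher and 9 lower than in the pool (median -0.65). Tcf7, the TCF-1 gene of early lymphoid cells, was at 14.1 UPM against 205 and 183, Klf2 at 59.4 against 251 and 299.8, and Zbtb16, the PLZF gene, at 4.63 against 80.1 and 52.3. The exceptions were Kit, the stem cell factor receptor gene, at 233 against 60.7 and 20.8, and Bcl2 at 215 against 105 in the pool. In the homing, residency and egress list 4 of 21 were higher and 9 lower than in the pool (median -0.84). The 4 were Ccr8, Ccr9, Itga4 and Cd69, the last a gene that opposes egress, at 866 UPM against 313 and 403. S1pr1, the receptor for egress, was at 4.63 UPM against 106 and 152.

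The other libraries are mostly CD3-bearing cells, so the comparison was repeated with their cells that had no Cd3e or Cd3d UMI (425 of the pool and 225 of the sort labelled as IL-18R- CD103- GFP-). Markers of B, myeloid, erythroid or stromal cells were frequent there: 44% and 22.2% of these cells had at least 3 UMIs of them, against 9.03% of Il5/Il13-zero ILC2. Of 6319 genes measured, 259 were higher than in the CD3-negative pool cells and 1263 lower, and of 6043 measured against the other library 203 were higher and 934 lower (median log2 ratios -0.37 and -0.32). ILC2 identity genes, a list that also holds Areg, were 13 higher and 0 lower (median log2 ratio 1.98), and 11 higher and 0 lower in the other library (median 1.58). Il17rb no longer reached a ratio of 2 against the pool cells, nor Arg1 against the other library, nor Kit against either. Of the 20 immediate early and heat shock genes, 2 were then higher than in the other library, Egr3 and Nr4a1, and 4 lower. Secreted mediators were 11 higher and 7 lower, and 9 and 8 (medians 1.21 and 0.08). Of 5 T cell genes measured, 1 was higher and 0 lower than in the pool cells, the former being Cd3g (log2 ratio 1.54), and 0 were higher and 1, Cd4, lower than in the other library. Of 5 gamma delta T cell genes measured, Trdv4 was higher and Cd163l1 lower than in the pool cells (median log2 ratio 0.004). Of 6 measured against the other library, Trdv4 was higher, and Trdc and Cd163l1 were lower (median -0.44).

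The transcript rule itself found 120 cells in the pool and 44 in the sort labelled as IL-18R- CD103- GFP-, mostly through Gata3. They had lower levels of Il1rl1 and of the label's markers outside the gate than Il5/Il13-zero ILC2, and were closer in some other ILC2 identity genes. In the 120 pool cells Il1rl1 was at 21.2 UPM, Rnf128 at 0, Slc7a8 at 3.18, Il18r1 at 729 and Tcf7 at 356. Areg was at 730 UPM in them, Kit at 180 and Ccl1 at 0. In the 44 cells Il1rl1 was at 104.5 UPM, Rnf128 at 29.8, Il18r1 at 619 and Areg at 1100. Il17rb was at 87.9 UPM in the 120 cells and 67.2 in the 44, against 110.3 in Il5/Il13-zero ILC2. Arg1 was at 145 and 186.5 against 225, while Klrg1 was at 11.65 and 41.0 against 164. Median depth was 6683 UMIs in the 120 cells and 5816 in the 44.

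Within the IL-18R- ST2+ library, few genes of any kind were apart by the size rule between Il5/Il13-zero and Il5/Il13-positive ILC2. Most other secreted mediators measured lay lower in Il5/Il13-zero ILC2. Of 5124 genes measured, 5 were higher in Il5/Il13-zero ILC2 (0.0976%) and 24 lower (0.468%), the latter including Il5 and Il13 by the rule, and the median log2 ratio was 0.01. Among 18 ILC2 identity genes 0 were called in either direction, with 8 above and 10 below a ratio of 1 (median log2 ratio -0.05). At the shares called over all genes, a count of 0 does not set a list of this size apart. Slc7a8 was at 279 UPM against 278, Klrg1 at 164 against 165 and Kit at 233 against 246. Counting intervals were apart for the label marker Rnf128, at 250.3 UPM (235 to 266) against 197.7 (180.3 to 216), and for Areg, which is on the same list. Il1rl1, used by the gate, was at 900 against 916. In the quiescence and early ILC list 0 of 16 were called, with Tcf7 at 14.1 UPM against 20.02 and Klf2 at 59.4 against 40.0. Of 20 immediate early and heat shock genes 1 was higher and 1 lower, with 10 above and 10 below a ratio of 1 (median log2 ratio -0.02), and of 11 NF-kB and alarm signalling genes 0 were called (median -0.17).

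Most secreted mediators pointed one way, and few reached the size rule. Of 13 measured, 12 were below a ratio of 1 in Il5/Il13-zero ILC2 and 1, Tnf, was above. The median log2 ratio was -0.64, against 0.01 for all measured genes, and 2 genes, Il4 and Ccl5, were called lower. Tnf was at 66.7 UPM (59.0 to 75.1) against 49.2 (40.7 to 58.9). In cells thinned to 2000 UMIs its share was 10.7% (8.74 to 12.9) against 8.565% (6.10 to 11.6), with overlapping intervals. Il4 was at 33.1 UPM in Il5/Il13-zero against 73.8 in Il5/Il13-positive ILC2, a ratio of 0.449 (0.356 to 0.564). Ccl1 was at 776 against 1549, a ratio of 0.501 (0.478 to 0.525), and Csf2 at 527 against 948, a ratio of 0.556 (0.524 to 0.590). Areg was at 1441 against 2261, Cxcl2 at 1079 against 1679, and Lif at 116 against 209. Bmp7, at 50.6 against 54.2, differed by less than its counting error. By cells, thinned to 2000 UMIs, Ccl1 had a UMI in 33.9% (30.8 to 37.1) against 50.9% (46.1 to 55.7), Csf2 in 31.9% (28.9 to 35.1) against 42.8% (38.1 to 47.6), and Areg in 56.7% (53.4 to 60.0) against 74.5% (70.2 to 78.6). Il4 had one in 4.78% (3.48 to 6.39) against 8.33% (5.91 to 11.35), with overlapping intervals. At least 1 of Il4, Csf2, Areg and Ccl1 was present in 76.5% against 89.4% (86.1 to 92.1).

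The order held within bins of depth for the best counted of these genes. Below 4000 UMIs per cell Ccl1 was at 696 UPM in 333 Il5/Il13-zero ILC2 against 1887 in 85 Il5/Il13-positive ILC2. Between 4000 and 5000 UMIs it was 841 against 1481, and at 5000 or more 775 against 1508. Csf2 was at 372, 604 and 571 against 1057, 824 and 971 UPM in the same bins, and Areg at 1048, 1332 and 1814 against 1881, 1998 and 2430. For Ccl1, Csf2 and Areg each bin gave the lower level in Il5/Il13-zero ILC2. Il4 was at 34.2 against 84.2 UPM and 40.1 against 79.9 in the 2 deeper bins. In the shallowest bin it was at 22.1 UPM (14.3 to 32.6) against 23.4 (9.42 to 48.3). With 25 and 7 UMIs, that bin cannot tell whether a difference was present there. Txnip, which encodes an inhibitor of thioredoxin and of glucose uptake, went the other way in all 3 bins, at 141, 98.1 and 115 against 104, 68.0 and 53.9 UPM. Its intervals overlap in the 2 shallower bins and are apart only at 5000 UMIs or more.

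**Figure D4:**
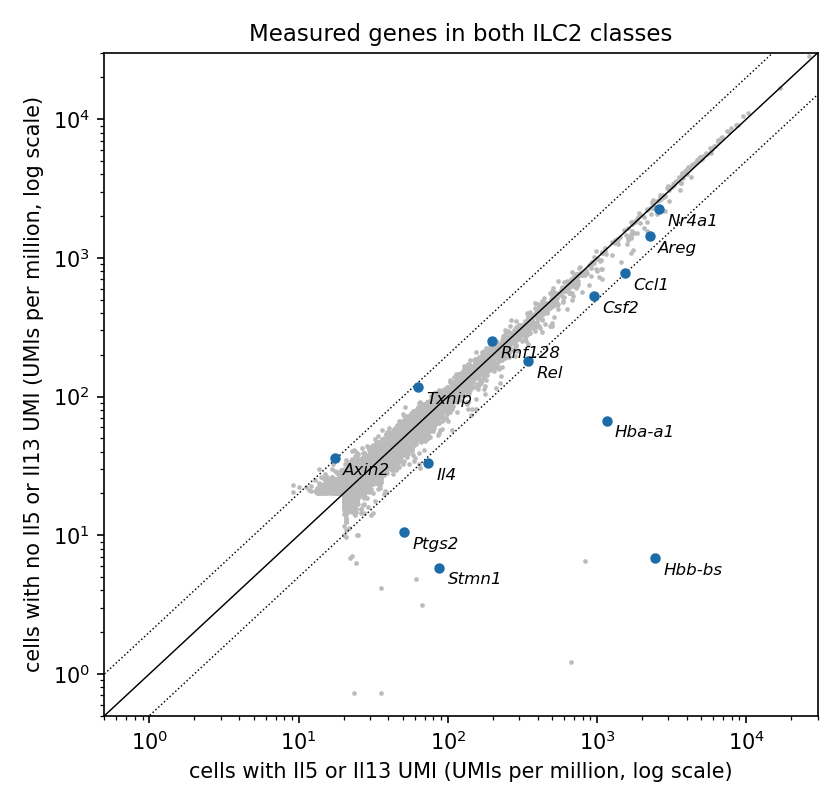
Levels of the genes measured in this comparison, leaving out the genes of the rule, in UPM on log axes, in Il5/Il13-positive ILC2 (x axis) and Il5/Il13-zero ILC2 (y axis). The solid line is equality and the dotted lines a ratio of 2. Most genes lie between the dotted lines, Areg, Ccl1, Csf2 and Rel lie under equality, and the globin genes Hbb-bs and Hba-a1 stand apart through 1 cell of the Il5/Il13-positive class.

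Grading the cells by Il5 and Il13 UMIs showed where the Il5/Il13-zero cells stood. Csf2 was at 527 UPM (505 to 550) at 0 UMIs, 671 (617 to 730) at 1, 869 (805 to 935) at 2 to 4 and 1325 (1245 to 1409) at 5 or more. Areg was at 1441, 1727, 2424 and 2661 UPM over the same steps. Ccl1 was at 776 at 0 UMIs and 1418, 1495 and 1744 above it, so its largest step was the first. Not all mediators rose at each step. Calca was at 497, 458, 577 and 1020, and Il2 at 164, 225, 156 and 276. Lif was at 116, 240, 181 and 206, and Tnf at 66.7, 63.1, 36.1 and 48.0. Cxcl2 was at 1079, 1118, 1890 and 2058, and Il4 at 33.1, 42.5, 49.8 and 132. For both Cxcl2 and Il4 the intervals at 0 and 1 UMI overlap. Rel, a subunit gene of NF-kB, was at 181 and 189 at 0 and 1 UMI, with overlapping intervals, then 375 and 477. Ptgs2 was at 10.5, 20.6, 39.9 and 94.7, and Furin, a proprotein convertase gene, at 1131, 1506, 1852 and 1907. Pdcd1, the PD-1 gene, was at 74.0, 112, 166 and 154.

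The gate genes, used by the rule, differed from each other: Il1rl1 was at 900, 915, 932 and 899 UPM, and Gata3 at 866, 816, 901 and 1129 (1056 to 1207). Txnip was at 116, 78.9, 61.1 and 49.3 UPM, and Rnf128, a marker of the label, at 250.3, 211, 214 and 166. For Rnf128 the intervals at 0, 1 and 2 to 4 UMIs overlap. Axin2, a feedback target of Wnt signalling, was at 36.0 UPM at 0 UMIs and 20.6, 14.95 and 16.9 above it. The cells at each step number 908, 160, 142 and 131, with median depths of 4396, 4602, 5262 and 5635 UMIs, so depth moves with the steps and its part was not separated.

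**Figure D5:**
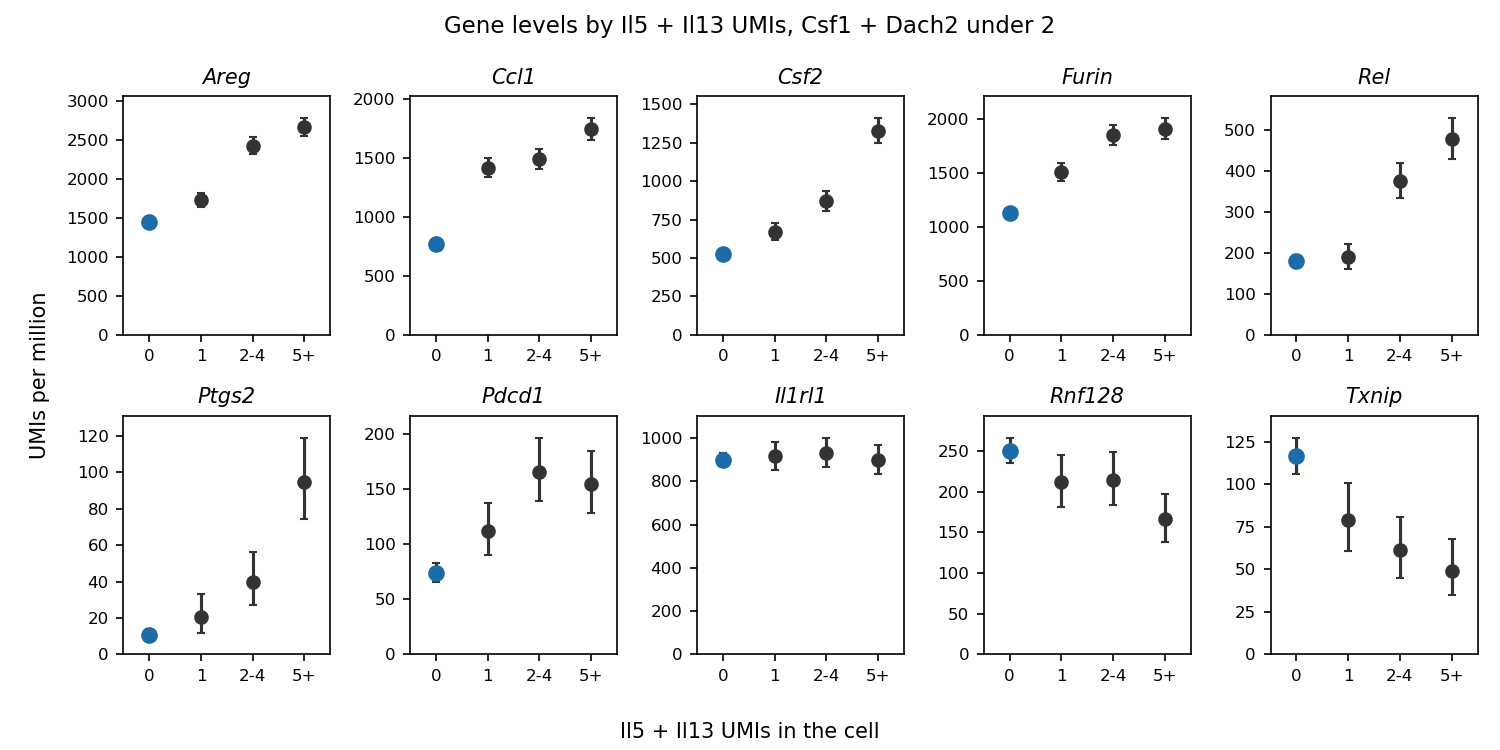
Levels of 10 genes in UPM (y axes from 0) by the Il5 and Il13 UMIs in the cell (x axes: 0, 1, 2 to 4, 5 or more), with 95% Poisson bars, in gate cells with fewer than 2 Csf1 and Dach2 UMIs. The blue point is the Il5/Il13-zero class. Csf2 goes from 527 to 1325 and Txnip from 116 to 49.3, while Il1rl1, a gate gene, lies between 899 and 932.

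Several of the largest ratios within the library rested on very few cells. One Il5/Il13-positive cell held 11990 of the 12656 globin UMIs of all kept cells, and Hbb-bt, Hbb-bs, Hba-a2, Timp3, Dcn, Gsn and Mgp each had 99.4% or more of their Il5/Il13-positive UMIs in 3 cells. The cycling genes Stmn1 (5.84 against 87.6 UPM) and Top2a (4.14 against 35.9) had 64.3% and 72.1% of theirs in 3 cells. On the other side, Ier3 had 71.3% of its Il5/Il13-zero UMIs in 3 cells. The remaining genes higher in Il5/Il13-zero ILC2 were Taok2 (20.5 against 9.18 UPM), Mocs2 (22.2 against 10.0), Pbx2 (30.2 against 13.8) and Axin2 (36.0 against 17.5), all of low count.

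Il5/Il13-zero ILC2 were not uniform. The count of Areg per cell ran from 0 to 115 UMIs with a median of 2, Ccl1 from 0 to 76 and Csf2 from 0 to 85, both with a median of 0. Some secreted products were counted more often in cells that held another, and others were not. In thinned cells with a Ccl1 UMI, Csf2 had one in 39.0% (33.5 to 44.7) against 28.3% (24.7 to 32.1) without, and Areg in 65.6% (60.0 to 70.9) against 52.2% (48.1 to 56.3). Cells with an Areg UMI had Rel in 31.6% (27.6 to 35.8) against 15.4% (11.98 to 19.4), Cxcl2 in 42.7% (38.4 to 47.2) against 26.0% (21.7 to 30.6), and Nr4a1 in 93.1% (90.6 to 95.2) against 80.7% (76.4 to 84.5). Lif was in 12.4% (9.62 to 15.5) of cells with Areg against 16.2% (12.7 to 20.2) without, and Il2 in 22.95% (18.4 to 28.1) of cells with Ccl1 against 17.7% (14.7 to 20.99) without, both with overlapping intervals. Txnip was lower with Areg, in 12.5% (9.80 to 15.7) against 21.6% (17.6 to 26.0).

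Identity genes did not follow this split beyond counting error. Rnf128 had a UMI in 36.7% of cells with Areg and 35.2% without, Slc7a8 in 40.2% and 39.3%, Kit in 32.4% and 33.9%, and Klrg1 in 26.1% and 24.7%. Il4 had a UMI in 6.28% (4.33 to 8.74) of cells with Areg and 2.83% (1.42 to 5.003) without, and the intervals overlap. These shares are of cells from 1 library and are descriptions.

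Few genes of any kind were apart by the size rule between Il5/Il13-zero ILC2 and Csf1/Dach2 ILC2, the third class of the gate. Of 5312 genes measured 16 were higher in Il5/Il13-zero ILC2 (0.301%) and 39 lower (0.734%), the latter including Csf1 and Dach2, or 24 and 25 under TMM (29.1% and 49.0% higher among those called). Of 18 identity genes 0 were called (median log2 ratio -0.05), and of 13 secreted mediators 0 were called (median -0.10). With so few genes called in all, a count of 0 does not set lists of this size apart from the rest. Csf2 was at 527 UPM in Il5/Il13-zero against 877 in Csf1/Dach2 ILC2, and Itga4, an integrin chain gene, at 182 against 283. Areg was at 1441 against 1399. The class of 152 cells holds 847135 UMIs, so 20 UPM is few counts, and outside the rule the gene with the largest ratio among those higher in Il5/Il13-zero ILC2, Dexi, was at only 23.9 against 5.90 UPM.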

How the data were processed

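Per the labels' protocols, the chemistry was 10x Single Cell 3' v3.1 with dual indexes. Cell Ranger 6.0.1 and build mm10 are named in the submitters' processing notes, and cell-calling settings were not given in the sources used here. The deposited matrices hold raw UMI counts, 32285 genes by barcode, with no normalisation. After filtering, the IL-18R- ST2+ library kept 1622 of 1760 barcodes, the pool 1659 of 1688 and the sort labelled as IL-18R- CD103- GFP- 1883 of 1903, with 7966923, 9000301 and 9705864 UMIs and medians of 4568, 4932 and 4772 per cell.

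Counts were summed over the cells of a class and divided by the class total (UPM). Intervals are exact Poisson or Clopper-Pearson at 95% and cover counting error only. Where cells were compared by share, each was thinned once to 2000 UMIs without replacement, and shallower cells were left out. TMM factors came from edgeR 4.0.16, used for scaling only and with no edgeR test. Scrublet in scanpy 1.11.5 called 26 of 5164 cells (0.503%), 4 of them Il5/Il13-zero ILC2. That is a low rate, so doublets were kept and calls left out only as an alternative. No free RNA was removed.

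The cells, the 22 gene lists and the genes named were chosen with earlier results of these data known. Named genes were the 12 largest ratios per direction of at least 50 UPM against each other library (10 within the library, no minimum beyond 20), up to 4 genes per list, the label's markers and the secreted mediators. Predicted genes and the 8 genes of the rule were left out of lists. Other genes printed from the gradient, the shares and the receptor lists were chosen after their values were seen. Promoter sequences are from RefSeq (GRCm38.p6), gene positions from GENCODE M21 (GRCm38). Alternatives were other scalings, no minimum level, thinning, stricter cell filters and other reference cells.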

Additional observations from a re-analysis of the deposited data

How the results depend on the processing

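Of 1799 values of 202 named genes recomputed under the alternatives, 1533 stayed within their counting interval, 260 moved further with the same direction and 6 turned. Cd3g turned to a log2 ratio of 1.54 against pool cells with no Cd3e or Cd3d UMI. With cells holding at least 3 UMIs of B cell, myeloid, erythroid or stromal genes left out, an alternative chosen after seeing the data, Sftpc turned to 0.61 against the pool, and Gsn (1.11), Hbb-bs (0.53), Mgp (1.85) and Ier3 (-0.62) turned against Il5/Il13-positive ILC2.

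Counts of genes depended on the minimum level. With none, 982 were higher and 2819 lower than in the pool, 1216 and 1928 than in the sort labelled as IL-18R- CD103- GFP-, 321 and 507 than in Il5/Il13-positive ILC2, and 215 and 1496 than in Csf1/Dach2 ILC2. Genes lower than in the pool numbered 506 under median-of-ratios scaling and 1263 against its cells without CD3 transcript. Thinning to 2000 UMIs gave 55 higher and 37 lower than in Il5/Il13-positive ILC2, and 205 and 191 than in Csf1/Dach2 ILC2. Cells of at least 5000 UMIs, also chosen after seeing the data, gave 32 and 51, and 93 and 103. Against Csf1/Dach2 ILC2, TMM and median-of-ratios scaling both gave 25 lower, and leaving out cells with other markers gave 28 higher. Thinned and deep-cell sums hold fewer counts by construction. The Il5/Il13-zero share of the gate was 75.0% with cells thinned to 2000 UMIs and 68.4% at 3000. The share with another mediator was 98.6% at 3000 UMIs and 99.0% without thinning, the last chosen after seeing the data.

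No paired analysis was possible because each group is 1 library and the labels give no replicate numbers. Depth limits the class itself: 1 UMI of Il5 or Il13 moves a cell out of it.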

Other observations

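Hba-a1, an alpha globin gene, was spread thinly over Il5/Il13-zero ILC2: 276 UMIs, at most 9 in a cell, in 19.1% (16.6 to 21.8) of the 908 cells, against 28 UMIs of Hbb-bs in 2.97% of them. In Il5/Il13-positive ILC2 Hba-a1 had a UMI in 24.9% (20.9 to 29.3), in Csf1/Dach2 ILC2 its level was 69.6 UPM against 67.2 UPM in Il5/Il13-zero ILC2, and in the other libraries 1.89 and 0.515 UPM. The 1 cell with most globin had 2570 Hba-a1 and 5839 Hbb-bs UMIs, so the ratio of both genes differed from that in Il5/Il13-zero ILC2. Of the 43 cells of this library without Il1rl1 or Gata3 transcript, 1 had an Hba-a1 UMI (2.33%, 0.0589 to 12.3). Hba-a1 has a near-identical copy, Hba-a2 (27 UMIs in Il5/Il13-zero ILC2), and the division of reads between them is uncertain.

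Ribosomal protein genes took a median of 30.1% of UMIs in Il5/Il13-zero ILC2, 28.7% in Il5/Il13-positive ILC2 and 29.6% in Csf1/Dach2 ILC2, against 22.9% in the pool and 23.1% in the sort labelled as IL-18R- CD103- GFP-. Hes1, a target of Notch signalling, was at 676 UPM in Il5/Il13-zero ILC2, 544 in Il5/Il13-positive and 813 in Csf1/Dach2 ILC2, against 56.8 and 14.4 in the other libraries. Klf5, a transcription factor gene, was at 93.5 UPM against 2.00 and 0.412, Prnp, the prion protein gene, at 217 against 6.67 and 5.26, and Tnfrsf18, the GITR gene, at 458 against 77.7 and 81.4. Ltb, a lymphotoxin gene also used as an ILC3 marker, was at 883 UPM against 709 and 681, while Il23r was at 0.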
